A study of Mus musculus with 9 samples.

Results

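The mammalian proteasome is built from several groups of subunits, and its genes were followed here in B cells that met antigen in the spleen and in the plasma cells (PCs) that formed from the same response. All genes were taken whose symbol is Psma, Psmb, Psmc, Psmd, Psme, Psmf or Psmg and a number, with or without 1 further letter. This gave 49 of the 29995 genes in the table without immunoglobulin (Ig) genes, whose values are TPM, an estimate of transcript abundance per length. They comprised 8 alpha and 7 constitutive beta subunits of the 20S core, 3 immune beta subunits, 1 thymic beta subunit and 17 subunits of the 19S cap (6 ATPases and 11 others). The rest were 3 assembly chaperones of the cap, 4 assembly chaperones of the core, 5 genes of activators and the inhibitor gene Psmf1. The rule used symbols and no measured value. Expression came from RNA-seq of 9 libraries, 3 in each of 3 groups. All cells came from spleens of 12-week-old B6.Blimp1+/GFP mice, in which 1 allele of the Blimp1 gene carries green fluorescent protein (GFP), so every group shares this allele. All mice, those that gave the naive cells included, had received 50 µg of the hapten NP coupled to lipopolysaccharide (NP-LPS) into the peritoneum 4 days earlier. Naive B cells were sorted as IgD high, B220+ and NP-. NP-specific B cells, written NP+ B cells from here on, were IgD-, B220+, NP+, GFP- and CD138-, and PCs were IgD-, NP+, GFP+ and CD138+ with B220 present or absent. Cells that stained for CD4, CD8a, F4-80 or Ter-119 were gated out of each group.

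As background, the 20S core is a barrel of stacked rings, in which outer alpha rings guard the entrance and inner beta rings carry the proteolytic sites. The 19S cap binds ubiquitin-tagged proteins, removes the ubiquitin and threads the unfolded chain into the barrel with its ring of ATPases. Under interferon, and constitutively in many lymphoid cells, the catalytic subunits encoded by Psmb5, Psmb6 and Psmb7 are replaced in newly built barrels by those of Psmb8, Psmb9 and Psmb10. The resulting immunoproteasome is known for producing peptides for MHC class I. In plasma cells the proteasome also degrades misfolded antibody chains that leave the endoplasmic reticulum, and these cells are known to be sensitive to proteasome inhibitors.

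The libraries held 20189900 to 38602300 estimated reads without Ig genes, and each tested member had at least 271 of them in every library, other than Psmb11 with at least 51.6. The sort was reflected in the summed TPM of B cell markers (5856 to 6325 in naive B cells, 4098 to 4460 in NP+ B cells and 628 to 672 in PCs). For plasma cell markers the sums were 143 to 167, 192 to 206 and 6103 to 7422. The 6 plasma cell genes did not move together between the B cell groups. At an adjusted p under 0.05 by limma, 3 were higher and 2 lower in NP+ than in naive B cells, the 2 by over 2-fold. In PCs all 6 were higher than in either group of B cells. Of the lists for other cells, the 6 liver genes summed to 4613 TPM in PC replicate 3 and to 22.8 and 26.5 in the other PC libraries. The 5 neutrophil genes summed to 49.0 in NP+ B cell replicate 2 and 31.3 in PC replicate 3 against 0.321 to 4.51 in all other libraries. Macrophage genes (7 listed, 3 tested) summed to 9.97 to 10.3 TPM in naive B cells, 53.4 to 70.4 in NP+ B cells and 35.0 to 122 in PCs. T cell genes summed to 56.1 to 64.1, 24.3 to 58.4 and 4.53 to 7.20. The part of these cells in the results was not tested. Without PC replicate 3, 29 members were higher and 4 lower in PCs relative to naive B cells, against 29 and 6 with it. In bulk samples, fewer cells of a type and less RNA per cell cannot be told apart.

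A scale had to be chosen before the PCs could be compared. TPM without Ig genes gives each gene as a share of the non-Ig mRNA. On that scale the members together made up 0.916% ± 0.00996 of TPM in the naive group (mean ± SD, n = 3), 1.32% ± 0.0856 in NP+ B cells and 1.26% ± 0.0349 in PCs. With Ig genes counted, the same share was 0.864% ± 0.00884, 1.24% ± 0.0784 and 0.509% ± 0.0177. That share is of the deposited TPM of each library, whose total differed between groups. The totals with Ig genes were 936731 to 937784 in naive B cells, 902902 to 912982 in NP+ B cells and 671550 to 699885 in PCs. Without Ig genes they were 944358 to 952063. Tests with Ig genes scaled each library to its own total, so with equal totals the changes in PCs would be lower. The members thus took a larger share of TPM in NP+ B cells than in naive B cells in both tables, while in PCs the share was larger without Ig genes and smaller with them. Ratios between members within a library do not depend on this choice. Values below are TPM without Ig genes, which are corrected for transcript length, and log2 changes are from limma on voom values with the standard error (SE) and a p-value adjusted over 12892 tested genes. Unless a fold is given, a member is said to have risen or fallen where the adjusted p-value was under 0.05.

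Expression in naive B cells was uneven within each group of subunits. Among the 20S alpha genes, mean TPM ran from 125 for Psma4 to 714 for Psma3 over the 7 that were tested, and among constitutive beta genes from 61.4 for Psmb7 to 423 for Psmb6. The highest member in both groups of B cells was Psmb8, which encodes the immune subunit of the chymotrypsin-like site, at 854 ± 35.4 and 1224 ± 76.5 TPM. Psma3, an alpha ring subunit, was highest in PCs at 1133 ± 37.1. The 19S subunits lay lower, from 67.2 for Psmc6 to 165 for Psmd4 in naive B cells, with a median of 108 against 269 over the 18 genes of the core. Genes of assembly chaperones had lower medians still, at 45.6 for those of the cap and 55.1 for those of the core. They ran from 9.59 for Psmd9 to 89.6 for Psmg4, a range that overlapped that of the 19S subunits.

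Psma8, which encodes an alpha subunit of testis, had 0.10 to 1.94 TPM (2.9 to 93.0 estimated counts) and reached 1 TPM in 1 library, so it was not tested. Psmb11, the beta subunit of thymic epithelium, was tested at 0.635 to 2.02 TPM and passed no comparison. The remaining 47 members had at least 7.82 TPM in every library.

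**Figure D1:**
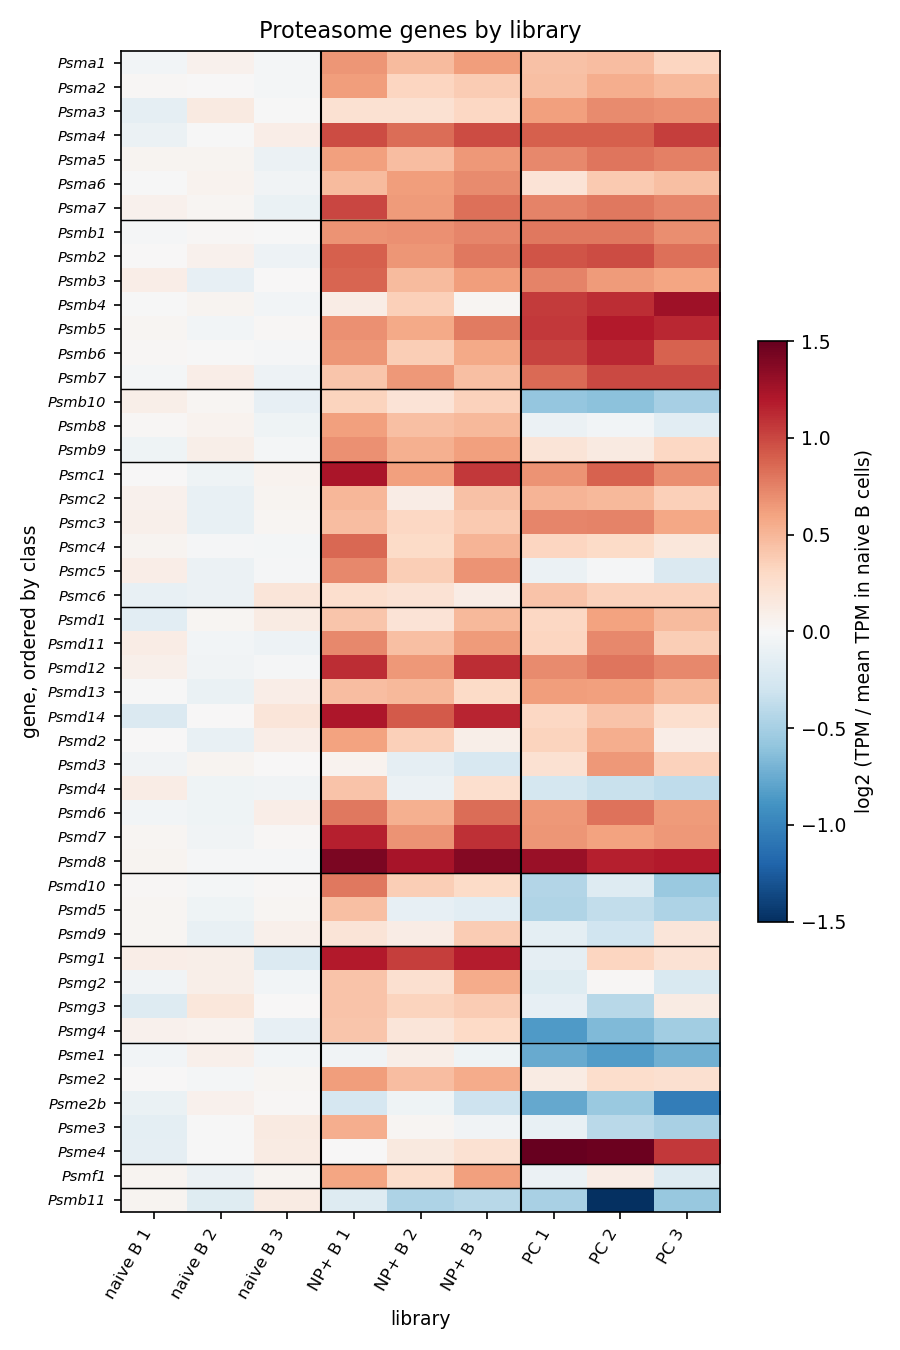
Rows are the 48 tested proteasome genes ordered by class and columns are the 9 libraries, with colour giving log2 of TPM over the gene's mean in naive B cells, from TPM without Ig genes and clipped at 1.5 in both directions. Most rows are red in NP+ B cells, and in PCs most core and cap genes stay red while Psmb10, Psmg4 and Psme1 are blue. With Ig genes counted, 44 of 48 members passed the test as lower in PCs against naive B cells. On that scale the median log2 change was -0.81 over the members and -1.40 over all tested genes.

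The first comparison asked how the proteasome genes of antigen-activated B cells differ from those of naive B cells. Of the 48 members tested, 34 rose and 0 fell in NP+ B cells, where 18.6% and 23.5% of all tested genes did, and the median log2 change was 0.49 over the members and -0.16 over all tested genes. The changes were mostly under 2-fold: 3 members passed the study's general threshold of an adjusted p-value under 0.05 with a change over 2-fold (Psmd8, Psmg1 and Psmd14), all of which rose. They are 6.25% of the members, where 8.13% of all tested genes rose and 10.4% fell by this call, 18.5% in all. Groups did not overlap, with NP+ B cells higher, for 37 members (23.6% of all tested genes) and with naive B cells higher for 1 (32.4%). The median of the members stayed above 0 under each of 4 scalings (0.49, 0.60 with median-of-ratios scaling, 0.34 with quantile normalization and 0.48 with Ig genes), and 26 members rose under all 4. In the same order the medians of all tested genes were -0.16, -0.048, -0.082 and -0.16. The share of all tested genes that rose under all 4 is not given. Quantile normalization also gave 2 members that fell, and the number over 2-fold was 6 without NP+ B cell replicate 2.

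By role, all 7 tested alpha genes, 6 of 7 constitutive beta genes and all 3 immune beta genes rose. So did 5 of 6 ATPase and 8 of 11 other 19S genes, 2 of 4 core chaperones, 1 of 3 cap chaperones, 1 of 5 activator genes and Psmf1. Of all tested genes 18.6% rose. The exceptions in the core and cap were Psmb4, Psmc6, Psmd2, Psmd3 and Psmd4, the last of which passed the test without NP+ B cell replicate 2 (adjusted p = 0.0236). Psmd8, a subunit of the 19S lid, had 145, 139.5 and 139 TPM in the naive libraries, 375, 334 and 367 in those of NP+ B cells and 347, 317 and 321 in those of PCs. It changed most of all members, with log2 change 1.33 ± 0.09, adjusted p = 2.67e-06, and the naive libraries lay far below the rest. Psmd14, the lid enzyme that cuts ubiquitin chains off the substrate, had 92.9, 108 and 122 TPM in the naive libraries, 249.96, 203 and 237 in those of NP+ B cells and 133, 145 and 128 in those of PCs. Its change was log2 change 1.09 ± 0.12, adjusted p = 6.24e-05, and the levels in PCs lay between those of the other groups. Psmg1, an assembly chaperone for the alpha ring, had 32.8, 32.6 and 26.7 TPM in the naive libraries, 70.3, 63.0 and 69.3 in those of NP+ B cells and 28.0, 38.3 and 35.8 in those of PCs. NP+ B cells stood alone here, with log2 change 1.12 ± 0.14, adjusted p = 0.000143 and with naive and PC libraries in one range.

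In the alpha ring, Psma4 changed most (log2 change 0.92 ± 0.09, adjusted p = 3.03e-05) and Psma3 least (log2 change 0.25 ± 0.08, adjusted p = 0.0313). The call of Psma3 was lost without naive replicate 1 (adjusted p = 0.142), naive replicate 3 (0.0802) or NP+ B cell replicate 3 (0.101). Among constitutive beta genes, Psmb2 changed most (log2 change 0.77 ± 0.09, adjusted p = 8.79e-05). Psmb4, a non-catalytic beta subunit needed to close the ring, did not pass the test (log2 change 0.16 ± 0.11, adjusted p = 0.258). In the ATPase ring the range ran from Psmc6 (log2 change 0.19 ± 0.11, adjusted p = 0.185) to Psmc1 (log2 change 0.95 ± 0.15, adjusted p = 0.000542). Of the cap chaperones, Psmd10 rose (log2 change 0.47 ± 0.15, adjusted p = 0.0268), but not without naive replicate 1 (adjusted p = 0.067), naive replicate 2 (0.0755), naive replicate 3 (0.066) or NP+ B cell replicate 1 (0.0702).

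The catalytic subunits come in pairs that compete for one position, and their ratios were among those in which PCs stood apart from both kinds of B cell. For the chymotrypsin-like site, the constitutive gene Psmb5 had 188, 179 and 186 TPM in the naive libraries, 297, 273 and 317 in those of NP+ B cells and 384, 419 and 405 in those of PCs. Its immune counterpart Psmb8 had 864, 884 and 815 TPM in the naive libraries, 1312, 1169 and 1193 in those of NP+ B cells and 805, 829 and 763 in those of PCs. Psmb5 thus climbed from naive to NP+ B cells to PCs with no overlap between groups, whereas Psmb8 was highest in NP+ B cells and the PC and naive ranges met.

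For the caspase-like site, Psmb6 had 429, 423 and 417 TPM in the naive libraries, 671, 547 and 627 in those of NP+ B cells and 855, 925 and 781 in those of PCs. The immune counterpart Psmb9 had 284, 317 and 291 TPM in the naive libraries, 478, 432 and 456 in those of NP+ B cells and 339, 327 and 367 in those of PCs. Psmb6 again stood in the order naive, NP+, PC, and Psmb9 was highest in NP+ B cells, although part of Psmb9 shares exonic bases with Tap1 on the opposite strand. For the trypsin-like site, Psmb7 had 60.1, 65.7 and 58.2 TPM in the naive libraries, 82.2, 96.3 and 83.8 in those of NP+ B cells and 110.3, 122 and 122 in those of PCs. Its counterpart Psmb10 had 166, 160.1 and 143 TPM in the naive libraries, 197, 181 and 199 in those of NP+ B cells and 105, 102 and 111 in those of PCs. The PC libraries were the highest of the 9 for Psmb7 and the lowest for Psmb10. Exons of Psmb7 overlap those of Nek6 on the opposite strand, which had a mean TPM of 1.36, 9.66 and 18.1 in the 3 groups. The library kit is not described as stranded, so reads from the overlaps cannot be told apart.

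**Figure D2:**
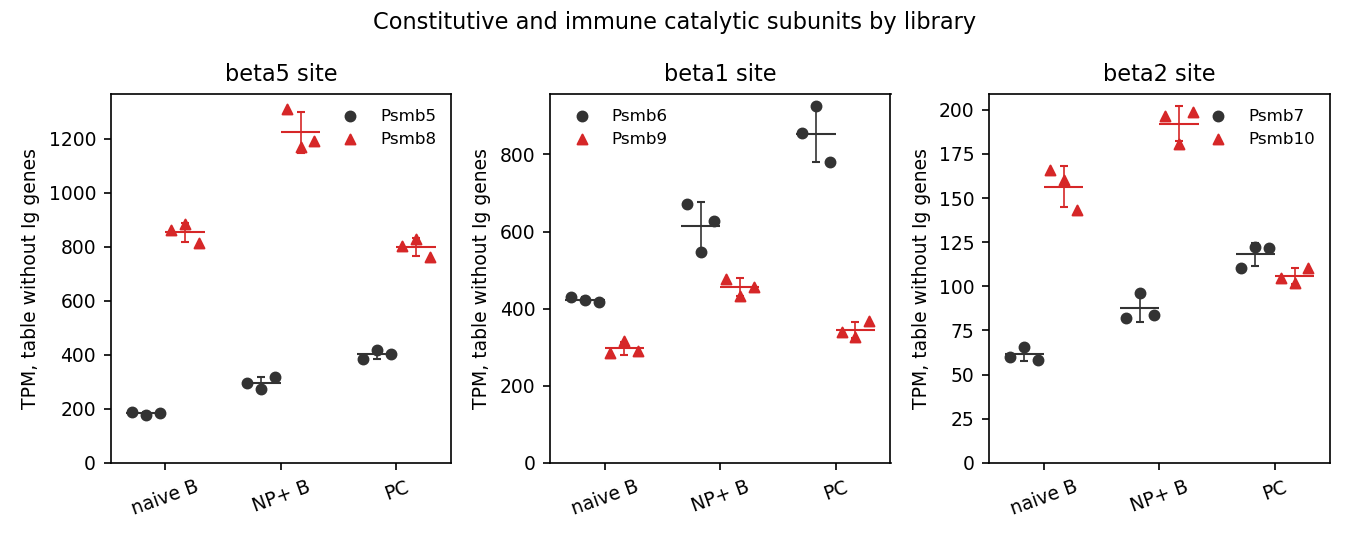
TPM without Ig genes of the 3 catalytic pairs by library, with constitutive genes as circles, immune genes as triangles, horizontal lines for means and bars for 1 SD of 3 libraries. In PCs the constitutive genes are at their highest (mean TPM 403, 854 and 118) and the immune genes are below their levels in NP+ B cells. With Ig genes counted, 2 of the 3 constitutive genes passed the test as lower in PCs against naive B cells.

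The ratio of Psmb8 to Psmb5 was 4.64 ± 0.285 in the naive group (mean ± SD, n = 3), 4.16 ± 0.347 in NP+ B cells and 1.99 ± 0.106 in PCs. Psmb9 to Psmb6 gave 0.703 ± 0.0439, 0.743 ± 0.0413 and 0.407 ± 0.0592, and Psmb10 to Psmb7 gave 2.55 ± 0.180, 2.22 ± 0.292 and 0.898 ± 0.0577. For each pair every PC library lay below every library of naive and NP+ B cells. The immune genes made up 66.2% ± 0.868 of the TPM of the 6 catalytic genes in naive B cells, 65.3% ± 0.913 in NP+ B cells and 47.7% ± 1.32 in PCs. On the log2 scale the ratios in PCs differed from those in naive B cells by -1.22, -0.80 and -1.51 for the beta5, beta1 and beta2 sites, and from those in NP+ B cells by -1.06, -0.88 and -1.30. Each of these 6 differences had p = 0.1 in a two-sided exact permutation test, the smallest p that 3 libraries against 3 allow, and 0.129 after adjustment over 9 tests. Leaving out any 1 library kept all 6 between -1.55 and -0.70.

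Between NP+ and naive B cells the same ratios lay closer together. The log2 differences were -0.16 for Psmb8 to Psmb5 (p = 0.2, exact permutation test) and 0.081 for Psmb9 to Psmb6 (p = 0.4, exact permutation test). The difference was -0.21 for Psmb10 to Psmb7 (p = 0.1, exact permutation test, with groups that did not overlap). Leaving out any 1 library gave ranges of -0.20 to -0.089, 0.036 to 0.13 and -0.27 to -0.096 for the beta5, beta1 and beta2 sites. Catalytic genes of both kinds rose in NP+ B cells: Psmb5 by 0.67, Psmb6 by 0.53 and Psmb7 by 0.50 on the log2 scale. The rise was 0.51 for Psmb8, 0.61 for Psmb9 and 0.29 for Psmb10. The 6 genes in this order had adjusted p = 0.000182, 0.00184, 0.00441, 0.000467, 0.000294 and 0.0257 by limma. The call of Psmb10 was lost without naive replicate 2 (adjusted p = 0.0578), naive replicate 3 (0.107), NP+ B cell replicate 1 (0.05) or NP+ B cell replicate 3 (0.0767).

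**Figure D3:**
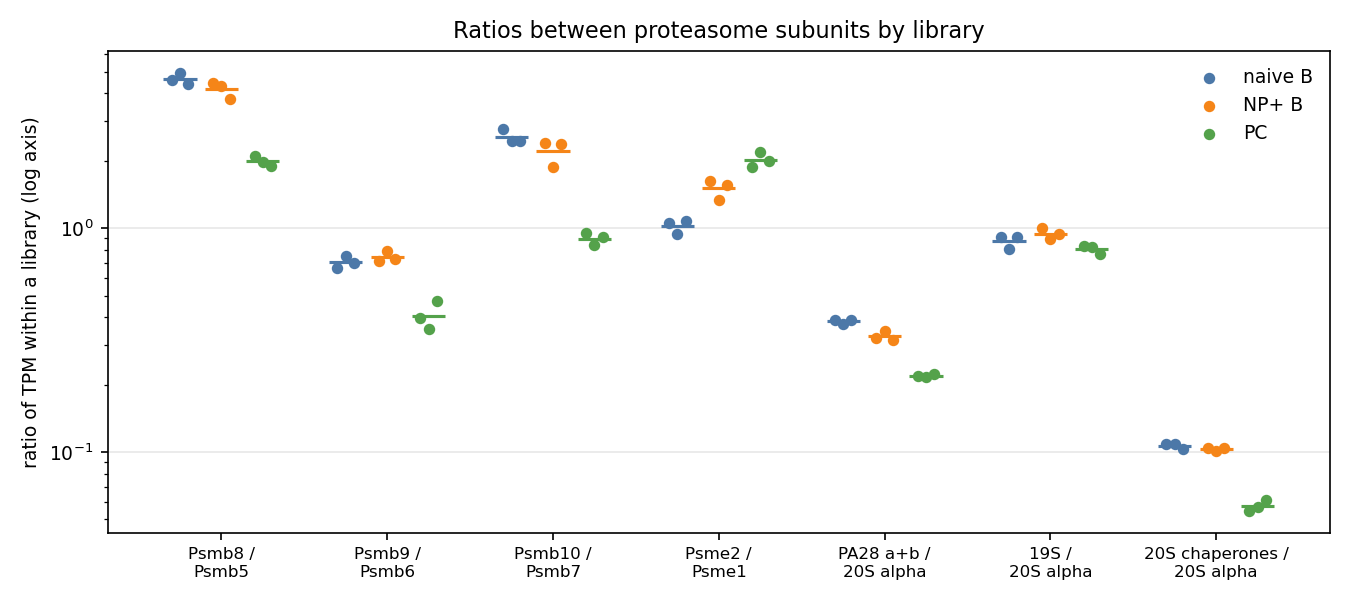
Each point is a ratio of TPM within 1 library on a log axis, with lines at group means, for the 3 catalytic pairs, Psme2 to Psme1, and sums of PA28 alpha and beta, 19S and core chaperone genes over the sum of 20S alpha genes. PCs lie apart from both kinds of B cell for the catalytic pairs (means 1.99, 0.407 and 0.898), PA28 (0.219) and core chaperones (0.0574), while for 19S over 20S alpha (0.807) they overlap naive B cells and lie below NP+ B cells.

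Whether PCs keep the proteasome profile of activated B cells was asked against both groups of B cells. Against naive B cells, 29 members rose and 6 fell in PCs, where 18.2% and 42.2% of all tested genes did, but with Ig genes counted 0 rose and 44 fell. The median log2 change was 0.40 over the members and -0.47 over all tested genes, and with Ig genes -0.81 and -1.40. The general 2-fold threshold was passed by 5 members (Psme4, Psmd8, Psmb4, Psmb5 and Psmb6), which is 10.4% of the members, all of them higher. By this call 11.4% of all tested genes rose and 26.3% fell, 37.8% in all. The number of members so called was 19 with median-of-ratios scaling and 3 with quantile normalization. Groups did not overlap with PCs higher for 32 members (21% of all tested genes) and with naive B cells higher for 8 (48.7%).

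Of the members that rose, 27 belonged to the core and the cap and 2 were the activator genes Psme2 and Psme4. All 7 tested alpha genes and all 7 constitutive beta genes rose on the scale without Ig genes, with medians of 0.66 and 0.93, but with quantile normalization 3 of the 7 alpha genes rose (median 0.31) and with Ig genes the medians were -0.56 and -0.28. Psmb4 had 157, 162 and 153 TPM in the naive libraries, 169, 202 and 160.4 in those of NP+ B cells and 325, 339 and 379.9 in those of PCs. Naive and NP+ B cells overlapped in Psmb4 and every PC library was above them. The test gave log2 change 1.14 ± 0.10, adjusted p = 4.14e-06 against naive B cells and log2 change 0.98 ± 0.10, adjusted p = 1.54e-05 against NP+ B cells. Psma3 had 649.5, 782 and 711 TPM in the naive libraries, 839, 837 and 886 in those of NP+ B cells and 1092, 1164 and 1145 in those of PCs. It changed by log2 change 0.66 ± 0.08, adjusted p = 4.02e-05 against naive B cells, the PC libraries being the highest, while Psma6 was the alpha gene with the smallest change (log2 change 0.34 ± 0.10, adjusted p = 0.0105).

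In the 19S cap, 4 of 6 ATPase and 9 of 11 other genes rose and 1 fell against naive B cells, whereas with Ig genes 0 rose and 16 of the 17 fell. Without Ig genes 18.2% of all tested genes rose and 42.2% fell, and with Ig genes their median was -1.40. Psmd8 kept a high level (log2 change 1.21 ± 0.09, adjusted p = 6.06e-07). Psmc1 changed most among the ATPases (log2 change 0.74 ± 0.15, adjusted p = 0.00124), followed by Psmc3 (log2 change 0.68 ± 0.09, adjusted p = 8.79e-05), whose exons overlap Slc39a13 on the opposite strand. Psmc5 had 137, 121 and 126 TPM in the naive libraries, 211, 166 and 205 in those of NP+ B cells and 121, 126 and 111 in those of PCs. PC and naive libraries shared one range (log2 change -0.11 ± 0.12, adjusted p = 0.429) below that of NP+ B cells. Psmd4, the cap's receptor for ubiquitin chains, was the 19S subunit that fell (log2 change -0.33 ± 0.13, adjusted p = 0.0478). This call was fragile, since the adjusted p was 0.0594 to 0.152 without naive replicate 1, 2 or 3, NP+ B cell replicate 3 or PC replicate 1, 2 or 3, and with median-of-ratios scaling the change was 0.17. Psmd14 rose (log2 change 0.33 ± 0.12, adjusted p = 0.0387), with adjusted p of 0.163 without naive replicate 1, 0.0796 without naive replicate 2, 0.0731 without PC replicate 1 and 0.116 without PC replicate 2.

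Of the 7 assembly chaperones 0 rose and 2 fell against naive B cells, while median-of-ratios scaling gave 2 that rose and the table with Ig genes 7 that fell. Without Ig genes 18.2% of all tested genes rose and 42.2% fell, so falls were not more frequent among the chaperones. Medians of all tested genes were 0.018 with median-of-ratios scaling and -1.40 with Ig genes. With quantile normalization 1 cap chaperone and 1 core chaperone rose and 1 core chaperone fell. Psmg4, a partner in building the alpha ring, fell (log2 change -0.68 ± 0.12, adjusted p = 0.00055), and with median-of-ratios scaling its change was -0.18. Psmd5, a chaperone of the cap's base, fell as well (log2 change -0.43 ± 0.16, adjusted p = 0.037), but the adjusted p was 0.0583 to 0.0893 without any 1 of the naive or PC libraries, and the change was 0.063 with median-of-ratios scaling. Psmg1, Psmg3, Psmd9 and Psmd10 did not pass the test, with log2 changes of 0.13, -0.14, -0.08 and -0.40, although Psmd10 passed it without NP+ B cell replicate 1 (adjusted p = 0.0153) or 3 (0.0435) or PC replicate 2 (0.036).

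Against NP+ B cells, 8 members rose and 19 fell in PCs, where 15.7% and 38.1% of all tested genes did. The split was 21 and 7 with median-of-ratios scaling, 11 and 13 with quantile normalization and 0 and 46 with Ig genes. The median log2 change of -0.19 was close to that of all tested genes (-0.30). Medians of the members and of all tested genes were 0.19 and 0.083 with median-of-ratios scaling and -0.13 and 0.0016 with quantile normalization. With Ig genes they were -1.33 and -1.27, so genes in general fell about as far as the members. A change over 2-fold was called for 1 member, Psme4, which rose, where 9.93% of all tested genes rose and 22.3% fell by this call, 32.2% in all. It was called for 4 members without NP+ B cell replicate 2, 2 without PC replicate 1, 2 without PC replicate 2 and 3 without PC replicate 3. Groups did not overlap with PCs higher for 11 members (17.3% of all tested genes) and lower for 21 (40.9%). The members that rose were Psma3, Psmb4, Psmb5, Psmb6, Psmb7, Psmc3, Psmd3 and Psme4, and 6 of them rose under each of the 3 scalings without Ig genes (all but Psma3 and Psmb6). Under all 4 scalings, 7 members fell (Psmb10, Psmc5, Psmd10, Psmd14, Psme1, Psmg1 and Psmg4). The share of all tested genes with one direction over several scalings is not given, so these counts describe the members only.

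Constitutive and immune catalytic genes differed in this comparison. Psmb5 (log2 change 0.45 ± 0.08, adjusted p = 0.000856), Psmb6 (log2 change 0.48 ± 0.09, adjusted p = 0.00141) and Psmb7 (log2 change 0.44 ± 0.10, adjusted p = 0.00383) rose on the scale without Ig genes. Psmb8 (log2 change -0.61 ± 0.08, adjusted p = 5.56e-05), Psmb9 (log2 change -0.40 ± 0.08, adjusted p = 0.00202) and Psmb10 (log2 change -0.85 ± 0.09, adjusted p = 2.05e-05) fell, although with median-of-ratios scaling the changes of Psmb8 (-0.23, adjusted p = 0.0516) and Psmb9 (-0.017, adjusted p = 0.895) did not pass the test. With Ig genes all 6 changes were negative, from -0.76 to -0.73 for the constitutive and from -2.05 to -1.60 for the immune genes, so the immune genes lay below their counterparts on that scale too. Against naive B cells, the immune genes changed by -0.10 (Psmb8), 0.21 (Psmb9) and -0.57 (Psmb10), of which only that of Psmb10 passed the test (adjusted p = 0.279, 0.0577 and 0.0004). With median-of-ratios scaling Psmb8 (0.39) and Psmb9 (0.70) rose and Psmb10 (-0.072, adjusted p = 0.607) did not pass the test, and with quantile normalization Psmb8 fell (-0.46). On the first scale Psmb9 passed it without NP+ B cell replicate 1 (0.0409) or 2 (0.0441).

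The alpha ring summed to 3324 ± 91.4 TPM in PCs and 3131 ± 166 in NP+ B cells without Ig genes. The median change of its genes was 0.014 on this scale, 0.40 with median-of-ratios scaling (5 of 7 rose) and -1.19 with Ig genes (7 of 7 fell). Around it, all 4 core chaperones fell against NP+ B cells on the scale without Ig genes, with a median of -0.75, where 38.1% of all tested genes fell with a median over all of -0.30. The sign of each was kept under the other 3 scalings, but with median-of-ratios scaling and with quantile normalization the median was -0.37 and Psmg2 and Psmg3 did not pass the test. Psmg4 had 94.0, 92.5 and 82.2 TPM in the naive libraries, 119.6, 102 and 109.9 in those of NP+ B cells and 49.8, 56.5 and 62.2 in those of PCs. The PC libraries were below all others (log2 change -0.97 ± 0.12, adjusted p = 4.11e-05). Psmg1 fell back by 0.99 on the log2 scale (adjusted p = 0.000124). Summed over the 4 genes, core chaperones stood to the alpha ring as 0.106 ± 0.00330 in naive B cells, 0.103 ± 0.00159 in NP+ B cells and 0.0574 ± 0.00312 in PCs. Psmg3 fell (log2 change -0.51 ± 0.15, adjusted p = 0.0125) but not without PC replicate 2 (adjusted p = 0.0502).

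Cap chaperones fell for 2 of 3 genes, Psmd10 (log2 change -0.87 ± 0.15, adjusted p = 0.000673) and Psmd5 (log2 change -0.48 ± 0.16, adjusted p = 0.025). The latter had an adjusted p of 0.0643 without PC replicate 1 and 0.0584 without PC replicate 3. The change of Psmd9 was log2 change -0.29 ± 0.18, adjusted p = 0.186. In the cap itself, 2 of 17 genes rose (Psmc3 and Psmd3) and 4 fell (Psmc5, Psmd4, Psmd7 and Psmd14), where median-of-ratios scaling gave 8 and 2 and the table with Ig genes 0 and 17. Of all tested genes 15.7% rose and 38.1% fell on the scale without Ig genes, so neither count of the cap was above that of genes in general. Medians of all tested genes were 0.083 with median-of-ratios scaling and -1.27 with Ig genes. Psmd3 had 70.9, 75.6 and 73.5 TPM in the naive libraries, 76.3, 66.6 and 62.3 in those of NP+ B cells and 86.1, 115 and 93.2 in those of PCs and changed by log2 change 0.51 ± 0.13, adjusted p = 0.00569. For Psmc3 the call (log2 change 0.30 ± 0.09, adjusted p = 0.017) was lost without PC replicate 1 (adjusted p = 0.0636) or 2 (0.0566). The fall of Psmd14 was larger (log2 change -0.76 ± 0.12, adjusted p = 0.000262). The ratio of summed 19S genes to the alpha ring was 0.878 ± 0.0630, 0.944 ± 0.0532 and 0.807 ± 0.0385 in the 3 groups in the order naive, NP+ and PC.

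**Figure D4:**
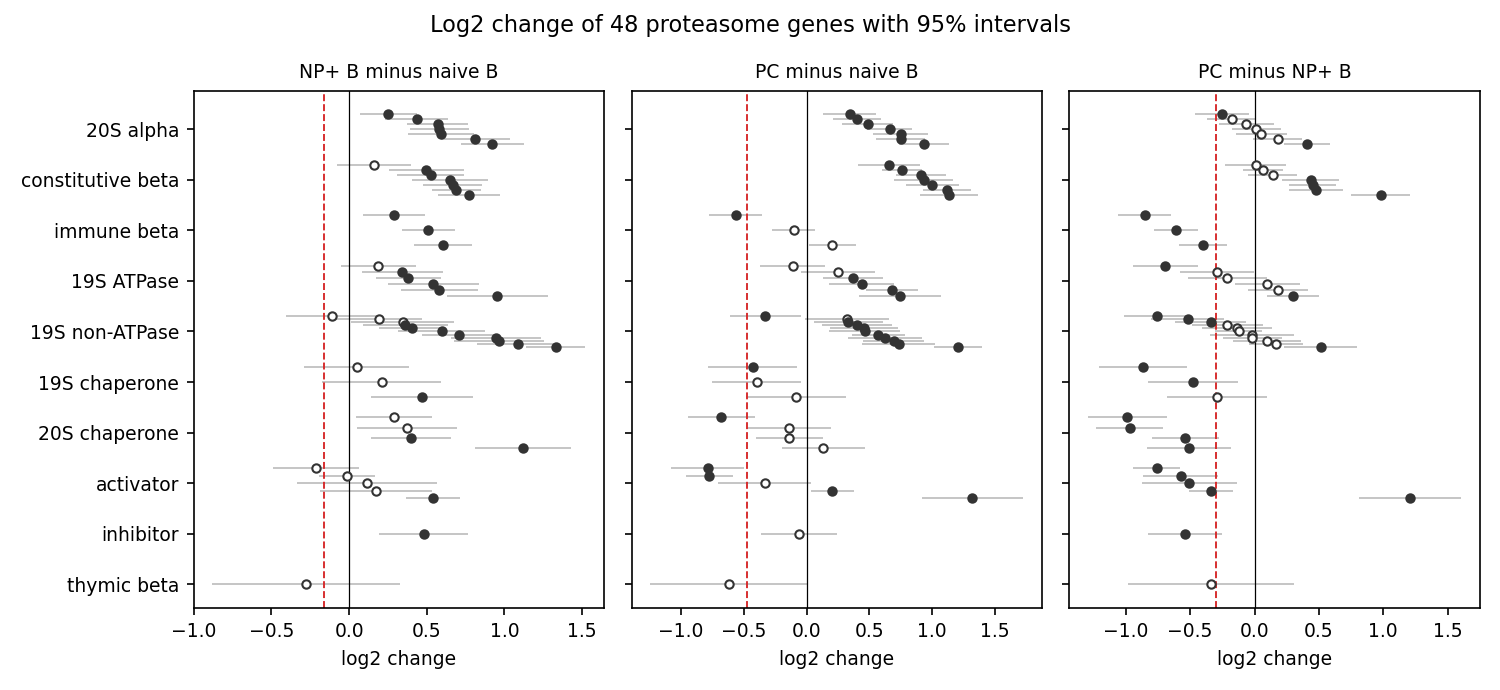
Each point is 1 of the 48 tested genes with its 95% confidence interval, filled where the adjusted p was under 0.05, on log2 values without Ig genes, and the dashed line is the median of all tested genes (-0.16, -0.47 and -0.30). NP+ B cells are right of 0 in most classes, and in PCs against NP+ B cells the constitutive beta genes and Psme4 lie right and the immune beta and chaperone genes left of 0. With Ig genes 0 members rose in PCs, where medians of all tested genes were -1.40 against naive B cells and -1.27 against NP+ B cells.

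The activators open the barrel without ubiquitin, and their genes moved apart. PA28 is a ring of the products of Psme1 (alpha) and Psme2 (beta), which interferon induces. Psme1 had 401, 435 and 399 TPM in the naive libraries, 399, 438 and 395 in those of NP+ B cells and 245, 231 and 249 in those of PCs. Naive and NP+ B cells did not differ by the test (log2 change -0.01 ± 0.08, adjusted p = 0.905), but with quantile normalization Psme1 was lower in NP+ B cells (-0.29, adjusted p = 0.0241). It fell in PCs, by 0.77 on the log2 scale against naive B cells (adjusted p = 1.41e-05) and by 0.76 against NP+ B cells (adjusted p = 2e-05). Psme1 was the only member that fell in PCs against naive B cells under all 4 scalings.

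Psme2, whose product partners that of Psme1, had 422, 412 and 428 TPM in the naive libraries, 649.8, 582 and 618 in those of NP+ B cells and 459.5, 507 and 495 in those of PCs. It rose in NP+ B cells (log2 change 0.54 ± 0.08, adjusted p = 0.000348). It stood between the other groups in PCs (log2 change 0.21 ± 0.08, adjusted p = 0.0422 against naive B cells, log2 change -0.34 ± 0.08, adjusted p = 0.00351 against NP+ B cells). The call against naive B cells was lost without naive replicate 1, 2 or 3 (adjusted p = 0.0981, 0.123 and 0.0757), NP+ B cell replicate 3 (0.0577) or PC replicate 2 or 3 (0.13 and 0.0872). With quantile normalization Psme2 passed the test as lower in PCs against naive B cells (-0.22), and with Ig genes it did so too (-1.01). The ratio of Psme2 to Psme1 was 1.02 ± 0.0679 in naive B cells, 1.51 ± 0.158 in NP+ B cells and 2.02 ± 0.159 in PCs, and no group overlapped another. The sum of Psme1 and Psme2 stood to that of the alpha ring as 0.385 ± 0.00955, 0.328 ± 0.0157 and 0.219 ± 0.00334. Psme2b, a close copy of Psme2 on chromosome 11 that also overlaps 9930111J21Rik1 on the same strand, had mean TPM of 106, 91.9 and 61.8, and its reads cannot be told apart with certainty from those of Psme2.

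Psme3, the nuclear PA28 gamma, had 102, 113 and 125 TPM in the naive libraries, 165, 116 and 109 in those of NP+ B cells and 105, 85.1 and 81.0 in those of PCs. NP+ B cell replicate 1 was high and the other libraries of the B cell groups shared one range. The fall from NP+ B cells to PCs (log2 change -0.51 ± 0.17, adjusted p = 0.0248) was lost without NP+ B cell replicate 1 (adjusted p = 0.0725), PC replicate 2 (0.0702) or PC replicate 3 (0.077). Psme4 encodes PA200, an activator that also recognises acetylated histones. It was the lowest of the activator genes and had 8.09, 8.79 and 9.66 TPM in the naive libraries, 8.85, 9.82 and 10.3 in those of NP+ B cells and 26.5, 24.5 and 18.5 in those of PCs. The B cell groups overlapped and every PC library was above them. The test gave log2 change 1.32 ± 0.18, adjusted p = 9.76e-05 against naive B cells and log2 change 1.21 ± 0.18, adjusted p = 0.000197 against NP+ B cells. Both calls were kept without any 1 library (adjusted p up to 0.000888 and 0.00106). Psme4 had the largest log2 change of the 48 members in both comparisons of PCs on this scale. With Ig genes its changes were 0.17 and 0.063 (adjusted p = 0.342 and 0.732), the only positive ones among the members. Each library was scaled there to its own TPM total, which was lowest in PCs, so the sign of changes this small depends on that total. Psmf1, which encodes the inhibitor PI31, rose in NP+ B cells and fell from there to PCs, but the fall did not pass the test with median-of-ratios scaling or quantile normalization (-0.16 in both).

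**Figure D5:**
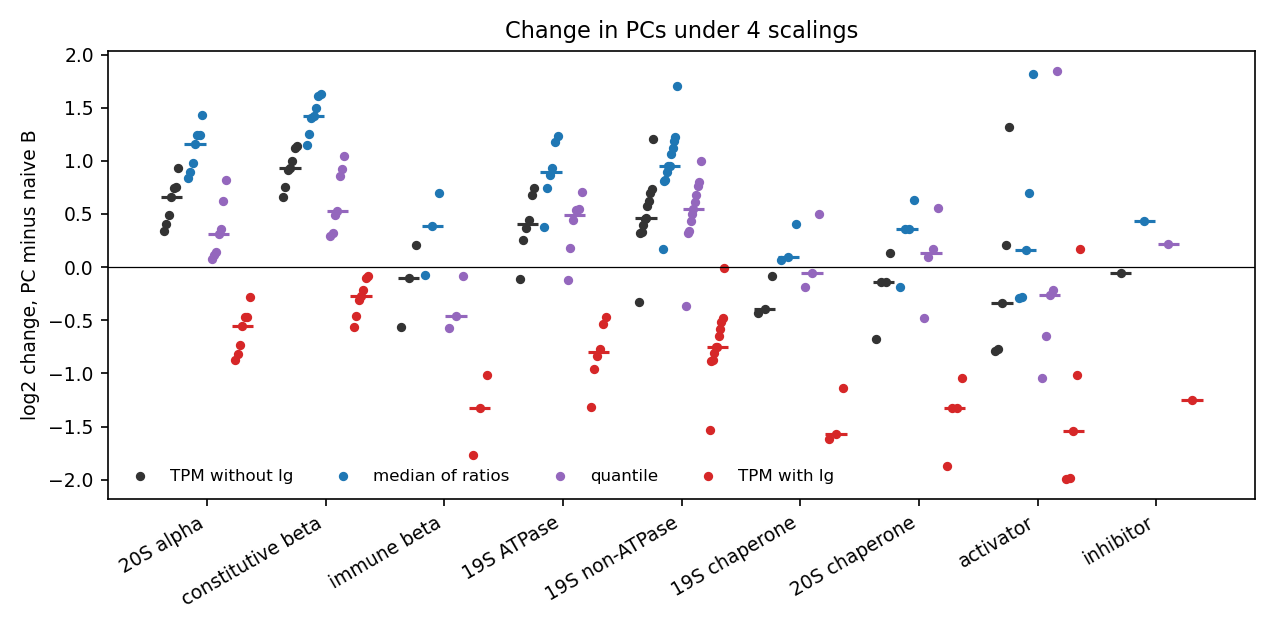
Log2 change of PCs against naive B cells by class for the tested members under 4 scalings, with a line at each class median; points are genes and the thymic gene is left out. The constitutive beta genes lie above the immune beta genes under each scaling, while the position of 0 moves, with medians for constitutive beta genes of 0.93, 1.43, 0.53 and -0.28 in the order of the legend.

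Over all 48 members, the most common course in TPM without Ig genes was a rise against naive B cells in both other groups with no call between these, seen in 16 genes and in 3.51% of all tested genes. With median-of-ratios scaling 12 of the 16 passed the test as higher in PCs against NP+ B cells, and with Ig genes 46 of the 48 members fell in that comparison. The median of all tested genes there was 0.083 with median-of-ratios scaling and -1.27 with Ig genes. A further rise in PCs followed in 5 (Psma3, Psmb5, Psmb6, Psmb7 and Psmc3), against 2.93% of all tested genes. Another 3 passed the test in PCs only (Psmb4, Psmd3 and Psme4, higher than both groups of B cells), which is 6.25% of the members and near the 7.23% of all tested genes. Psmd3 did not against naive B cells without naive replicate 1 (adjusted p = 0.0599) or PC replicate 2 (0.0707). In 7 genes the rise in NP+ B cells was followed by a fall to a level not different from naive B cells by the test (Psmb8, Psmb9, Psmc5, Psmd10, Psmf1, Psmg1 and Psmg2), a course of 5.51% of all tested genes. A fall in PCs against both groups with no call between the B cells was seen in 5 (Psmd4, Psmd5, Psme1, Psme2b and Psmg4), or 10.4% of the members against 16.4% of all tested genes. Psmb10 rose in NP+ B cells and fell below both in PCs (3.95% of all tested genes), but its rise was lost with quantile normalization (0.056) and its fall against naive B cells with median-of-ratios scaling. In 4 genes (Psma6, Psmd7, Psmd14 and Psme2) PCs passed the test as higher than naive and lower than NP+ B cells, against 1.88% of all tested genes. For Psma6 the second call had an adjusted p of 0.0596 to 0.18 without naive replicate 1, 2 or 3, NP+ B cell replicate 2 or 3 or PC replicate 1 or 2. With median-of-ratios scaling the change against NP+ B cells was positive for Psma6 (0.13), Psmd7 (0.041) and Psme2 (0.047) and negative for Psmd14 (-0.37). Psme3 and Psmg3 fell only from NP+ B cells to PCs (2.82% of all tested genes), while Psmc4 passed the test in NP+ B cells against naive B cells (0.861% of all tested genes took this course) and Psmc6 in PCs against naive B cells (1.28%), with no call between NP+ B cells and PCs for either. The rise of Psmc6 did not pass the test without naive replicate 1 (adjusted p = 0.0578) or 2 (0.0525). Psmb11, Psmd2 and Psmd9 passed no comparison, nor did 23.9% of all tested genes. These courses follow from 3 tests that share libraries.

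Genes whose products work with the proteasome were counted as a list of 27, all of which were tested. Against naive B cells, 7 rose and 2 fell in NP+ B cells and 7 rose and 5 fell in PCs. Of all tested genes, 18.6% rose and 23.5% fell in the first comparison and 18.2% and 42.2% in the second. The list medians were -0.0057 and 0.033 beside -0.16 and -0.47 over all tested genes. Against NP+ B cells, 6 rose and 8 fell in PCs, where 15.7% and 38.1% of all tested genes did. In PCs the counts were 15 and 2 against naive B cells and 12 and 5 against NP+ B cells with median-of-ratios scaling, and 2 and 21 and 0 and 23 with Ig genes. Medians of all tested genes in these comparisons were 0.018 and 0.083 with median-of-ratios scaling and -1.40 and -1.27 with Ig genes. Pomp, the maturation factor of the core, had a mean TPM of 77.7 ± 1.56 in the naive group, 177 ± 14.7 in NP+ B cells and 156 ± 9.69 in PCs. Its log2 changes were 1.17 and 0.99 against naive B cells (adjusted p = 1.1e-05 and 8.15e-06). Vcp, the ATPase that pulls proteins out of the endoplasmic reticulum, had 159, 239 and 554 TPM and changed by 0.58 and then by 1.21 (adjusted p = 0.00187 and 2.72e-06). Its adaptor Ufd1l, now named Ufd1, rose in PCs on the scale without Ig genes (0.64 against NP+ B cells, adjusted p = 0.00149). So did Ngly1, which strips glycans from retrotranslocated proteins (1.03, adjusted p = 7.19e-05), and Txnl1, a thioredoxin bound to the cap (1.19, adjusted p = 6.54e-06). Usp14 and Uchl5, which encode deubiquitinases of the cap, had mean TPM of 60.4, 102 and 49.5 and of 190, 382 and 236. Both means were highest in NP+ B cells. In PCs the mean was below that of naive B cells for Usp14 and above it for Uchl5. Nfe2l1, which drives proteasome gene transcription when activity is short, fell by 0.89 in NP+ B cells and by 0.79 in PCs on the log2 scale against naive B cells (adjusted p = 0.00106 and 0.000875). Genes outside the selection were named after their values were seen, here and in the next list.

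A second list held 12 regulators of the immune subunits and their MHC class I neighbours, all of which were tested. In NP+ B cells 0 rose and 7 fell, and in PCs 1 rose and 11 fell against naive B cells, and the median change of the list was below 0 under all 4 scalings. Of all tested genes, 23.5% and 42.2% fell in these comparisons and the medians were -0.16 and -0.47, beside -0.59 and -1.43 for the list. Against NP+ B cells 2 rose and 9 fell in PCs, beside 15.7% and 38.1% of all tested genes. Irf1, a transcription factor for the immune subunits, had a mean TPM of 154, 61.1 and 36.0, with changes of -1.35 in NP+ B cells and -2.09 in PCs (adjusted p = 2.08e-05 and 2.77e-07). Psmb8 and Psmb9 were thus higher in NP+ B cells at lower Irf1, and a link between these genes was not tested. Tap1 and Tap2, the peptide transporter genes that lie beside Psmb8 and Psmb9 in the MHC, fell in PCs by 1.04 and 0.84 on the log2 scale (adjusted p = 6.66e-05 and 6.61e-05). Tap1 fell in NP+ B cells too (0.48, adjusted p = 0.0139). B2m, the light chain of MHC class I, fell by 0.71 in NP+ B cells (adjusted p = 0.00324) and was the gene of the list that rose in PCs (0.51, adjusted p = 0.00902), although with Ig genes all 12 fell.

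Promoter sequence was looked at because the constitutive and immune catalytic genes moved apart. RefSeq promoters (build GRCm38.p6) matched 41 of the 49 members, with 250 bases upstream of the start searched on both strands. The core of the antioxidant response element, TGACNNNGC, was found for 5 of 41 members (12.2%, Psmb5, Psmb6, Psmc6, Psmd12 and Psmd9) and in 10.2% of the 32851 promoters of all genes. The interferon-stimulated element, searched as GAAA, any 2 bases and GAAA, was found for 3 (7.32%, against 2.98% of all promoters, Psmb3, Psmd4 and Psmd9), the gamma-activated site TTCNNNGAA for 2 (4.88% against 7.02%, Psmb8 and Psmg1) and a CCAAT box for 14 (34.1% against 33.8%). The sequences below lie upstream of the start and outside annotated exons, for the matched catalytic genes that were highest in PCs without Ig genes and for the immune gene that was lowest there. Psmb7 was not among the matched genes. The TGACNNNGC match is in capitals, and there is none of these motifs in the window of Psmb10.
Psmb5, chr14:54618026-54618105, minus strand: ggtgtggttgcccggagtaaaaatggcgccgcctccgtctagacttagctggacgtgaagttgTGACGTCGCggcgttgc
Psmb6, chr11:70525267-70525356, plus strand: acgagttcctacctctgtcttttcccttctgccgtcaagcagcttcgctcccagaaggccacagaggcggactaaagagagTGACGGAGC
Psmb10, chr8:105938453-105938552, minus strand: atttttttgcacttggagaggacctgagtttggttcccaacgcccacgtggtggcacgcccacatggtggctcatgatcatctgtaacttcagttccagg
The match starts 47 bases before the start site in Psmb5 and 9 bases before it in Psmb6. A match of these letters is a description of the sequence and was not tested as a binding site.

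The genes themselves lie on many chromosomes in GENCODE M21 (GRCm38). Psmb8 (chr17:34197721-34201454) and Psmb9 (chr17:34181987-34187764) are neighbours, Psme1 (chr14:55578123-55581529) and Psme2 (chr14:55587441-55591113) lie next to each other on opposite strands, and Psmb10 (chr8:105935735-105938444) and Psme4 (chr11:30771726-30880361) stand apart. The neighbours did not take one course: Psmb8 and Psmb9 both rose in NP+ B cells and fell from there to PCs, but Psme1 and Psme2 differed in their change from naive to NP+ B cells, as given above. Outside the selection, the pseudogenes Psmb5-ps, Psmb6-ps, Psmb6-ps2 and Psmb7-ps2 had at most 1.21 TPM in any library.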

How the data were processed

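RNA from 9 sorted populations was made into cDNA with a poly(A)-primed template-switching kit. The deposited TPM values were made by the authors with kallisto (named in the labels with mm10) and summed per gene symbol. The authors also deposited log2 values from voom, with an offset of 0.5 counts, where the value shared by all genes at 0 gave each library's size. TPM without Ig genes was passed to voom and fitted with limma (version 3.58.1, R 4.3.3), with 3 group means over all 9 libraries, a filter of 3 or more libraries at 1 TPM or higher, and Benjamini-Hochberg adjustment over 12892 genes. The model and the 2-fold call are the general ones of the study's methods, which also used other thresholds in displays of these samples. Such log2 changes understate those of low genes. The mice are stated to be 3 biological replicates. Ratios were tested by two-sided exact permutation. Scripts were tested on simulated data. Reads without molecular identifiers are not independent, so precision from depth covers counting error only. Coordinates came from GENCODE M21 and promoters from RefSeq (read with Python 3.11.15). The members and lists were chosen with earlier results of these data known.

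Named genes were the catalytic pairs, Psme1, Psme2, Psme3 and Psme4, and, in each comparison, the tested member with the largest rise and the largest fall among alpha, constitutive beta, ATPase and other 19S subunits and both kinds of assembly chaperone. The lists were 27 proteasome partners, 12 regulators and neighbours of the immune subunits, and markers of B, plasma, T, dendritic and erythroid cells, macrophages, neutrophils and liver. Dendritic genes summed to 7.25 to 8.10, 21.9 to 24.5 and 7.69 to 9.59 TPM in naive B cells, NP+ B cells and PCs, and erythroid genes to 15.5 to 18.0, 18.6 to 29.9 and 6.24 to 37.3. Alternatives changed the offset, the filter, the scaling, the Ig genes, the libraries in the fit and a replicate block.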

Additional observations from a re-analysis of the deposited data

How the results depend on the processing

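The 3 catalytic ratios kept their direction under each alternative that was run for ratios, which left out quantile normalization. Scaling a whole library by a common factor cannot change a ratio within it, so alternatives of that kind could not reverse the direction. With quantile normalization Psmb8 changed by 0.50 and Psmb5 by 0.46 in NP+ B cells against naive B cells, where their ratio in TPM changed by -0.16. Without any 1 library the log2 differences ranged from -0.20 to -0.089, -1.26 to -1.18 and -1.13 to -1.02 for Psmb8 to Psmb5, from 0.036 to 0.13, -0.91 to -0.70 and -0.99 to -0.78 for Psmb9 to Psmb6, and from -0.27 to -0.096, -1.55 to -1.45 and -1.41 to -1.23 for Psmb10 to Psmb7 in NP+ B cells against naive B cells, PCs against naive B cells and PCs against NP+ B cells, respectively. Counts depended on the scaling. Median-of-ratios scaling moved the median of all genes by 0.11, 0.49 and 0.38 in the same order and gave 7, 19 and 2 members over 2-fold (3, 5 and 1 as reported), 1 lower in PCs than naive B cells, and 21 higher and 7 lower in PCs than NP+ B cells. In the comparisons of PCs that median moved by 0.40 and 0.30 with quantile normalization and by -0.93 and -0.97 with Ig genes. Quantile normalization gave 2 members lower in NP+ B cells, and 3 and 2 over 2-fold in PCs. With Ig genes the members in PCs were 0 higher, 44 lower and 18 over 2-fold against naive B cells, and 0 higher, 46 lower and 39 over 2-fold against NP+ B cells. Medians of all tested genes were -1.40 and -1.27 there. The authors' log2 values gave 8 and 2 over 2-fold in PCs. Leaving out 1 library gave 2 to 6, 4 to 5 and 1 to 4 members over 2-fold, 29 to 36, 25 to 31 and 7 to 8 higher, and 0, 4 to 8 and 15 to 22 lower. Shares of all tested genes called under these alternatives are not given, so the counts describe the members only.

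Among named genes that passed the test under either of the 2 settings compared, signs were reversed in PCs against naive B cells with Ig genes for Psma3 (-0.56), Psma4 (-0.28), Psma6 (-0.87), Psmb2 (-0.31), Psmb3 (-0.56), Psmb4 (-0.081), Psmb5 (-0.10), Psmb6 (-0.22), Psmb7 (-0.28), Psmb9 (-1.01), Psmc1 (-0.47), Psmc3 (-0.54), Psmc6 (-0.83), Psmd14 (-0.88), Psmd3 (-0.80), Psmd8 (-0.011), Psme2 (-1.01) and Psmg1 (-1.04), with median-of-ratios scaling for Psmb8 (0.39), Psmc5 (0.38), Psmd4 (0.17) and Psmd5 (0.063), and with quantile normalization for Psmd9 (0.50) and Psme2 (-0.22). In PCs against NP+ B cells they were reversed with Ig genes for Psma3 (-0.80), Psma4 (-1.19), Psmb2 (-1.07), Psmb3 (-1.20), Psmb4 (-0.23), Psmb5 (-0.75), Psmb6 (-0.73), Psmb7 (-0.76), Psmc3 (-0.90), Psmc6 (-1.01) and Psmd3 (-0.68), and with median-of-ratios scaling for Psma6 (0.13), Psmd8 (0.26) and Psme2 (0.047). By construction, Ig genes take a share of TPM in PCs that other genes then lack. For the other alternatives the cause was not tested.

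With the replicate number as a block, the members higher were 34, 27 and 8 and those lower 0, 6 and 19, and 88 of 90 results for named genes kept their side of the threshold. The 3 cell types came from 3 mice, but libraries of one number did not deviate together (r from -0.075 to 0.068, against -0.086 to 0.072 for different numbers), so the numbers were not taken as pairs. Depth limits Psma8 (2.9 to 93.0 estimated counts per library) and Psmb11 (at least 51.6).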
